A study of Mus musculus with 38 samples.

Results

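The 45 mouse genes described here act in mitosis, and they were followed through 12 groups of samples from normal mouse cortex and from mouse glioma, a brain tumour with features of glia. The genes were chosen by symbol, as kinases, cyclins, spindle motors, kinetochore and cytokinesis proteins, anaphase factors and transcription factors known to work in late G2 and M phase. Of the 45 genes, 41 had a probe set among the 15644 genes measured on the arrays, 4 had none (Ccnb1, Ube2c, Kif15 and Mki67), and 38 were bright enough to be tested.

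The study profiled RNA attached to ribosomes in chosen cell types by translating ribosome affinity purification, in which ribosomes carrying a tag made in 1 cell type are pulled out of a tissue with their RNA. The tumour samples were tumours of 3 variations of a mouse glioma model, named Recruited, Pdgf Cre and Pdgf in the labels, which do not define the names further. From each model came 3 arrays of bound RNA of Olig2 cells and 3 of total RNA of the tumour. Olig2 is a transcription factor of the oligodendrocyte lineage. The cortex samples came from adult mice and gave 3 arrays each of bound RNA of Olig2 cells, oligodendrocyte progenitors (Pdgfra line), mature oligodendrocytes (Cnp1 line), astrocytes (Aldh1L1 line) and neurons (Snap25 line), and 5 arrays of total RNA. Samples of the cortex and of tumours alike were labelled with a mixed strain background that combined c57/bl6j with FVB and Swiss-Webster. The gene in a line's name drives its tag, so each bound group holds the RNA of whichever cells use that gene plus whatever other RNA is carried along. Per the series' design text, the cortical cell types were profiled in pools of 2 or more mice, while for tumours nothing is stated, so p-values measure the spread between these arrays, which may be technical in part.

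Mitosis starts when the kinase Cdk1, bound to cyclin B, is switched on. Its transcripts and those of its partners are made in a late wave of the cell cycle under the factors B-Myb and FoxM1, and are kept off in resting cells by complexes that sit on short elements near the start site. Kinetochores then attach chromosomes to the spindle, a checkpoint holds anaphase back until all are attached, and separase, the central spindle and a contractile ring divide the cell. In adult cortex most neurons, astrocytes and mature oligodendrocytes do not divide, whereas oligodendrocyte progenitors keep dividing slowly.

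The stretch of DNA just upstream of the start site is shown for 6 members that carry the results: Cdk1, Ccnb2, Top2a and Cdc20, which had their highest group mean in Pdgf Cre tumours, Mad2l1, which was seen in every array, and Anln, which was highest in mature oligodendrocytes. Each run is the 120 bases before the start in RefSeq's mouse annotation (build GRCm38.p6), written 5′ to 3′ on the strand of the gene. Capitals mark TTTGAA and its reverse complement TTCAAA, the self-complementary TTTAAA, and CCAAT and its reverse complement ATTGG, which are letters of the cell cycle homology region and of the CCAAT box known from such promoters. Cdk1 lies at chr10:69352913-69353032 on the minus strand, Ccnb2 at chr9:70421555-70421674 on the minus strand, Top2a at chr11:99024190-99024309 on the minus strand, Cdc20 at chr4:118437344-118437463 on the minus strand, Anln at chr9:22389207-22389326 on the minus strand and Mad2l1 at chr6:66535101-66535220 on the plus strand.
Cdk1: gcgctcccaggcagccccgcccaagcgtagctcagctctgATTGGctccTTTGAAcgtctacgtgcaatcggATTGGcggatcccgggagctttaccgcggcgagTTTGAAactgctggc
Ccnb2: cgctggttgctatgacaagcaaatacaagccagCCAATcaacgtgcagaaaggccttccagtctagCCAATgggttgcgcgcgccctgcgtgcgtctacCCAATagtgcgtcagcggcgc
Top2a: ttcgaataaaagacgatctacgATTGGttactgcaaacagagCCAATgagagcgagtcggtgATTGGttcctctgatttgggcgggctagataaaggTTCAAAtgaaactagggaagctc
Cdc20: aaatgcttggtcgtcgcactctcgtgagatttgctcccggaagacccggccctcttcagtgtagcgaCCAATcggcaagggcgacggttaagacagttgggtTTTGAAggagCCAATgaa
Anln: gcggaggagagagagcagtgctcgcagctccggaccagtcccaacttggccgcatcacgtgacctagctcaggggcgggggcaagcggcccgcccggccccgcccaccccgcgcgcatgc
Mad2l1: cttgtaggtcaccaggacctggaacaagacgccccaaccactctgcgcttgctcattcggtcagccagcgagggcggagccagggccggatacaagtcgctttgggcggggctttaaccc
The Cdk1 stretch held 2 TTTGAA and 2 CCAAT matches, the Ccnb2 stretch 3 CCAAT, the Top2a stretch 1 TTTGAA and 3 CCAAT, and the Cdc20 stretch 1 TTTGAA and 2 CCAAT. The Anln and Mad2l1 stretches held none of these letters. Over 250 bases upstream to 50 bases after the start, 36 promoters of 34 members could be read. CCAAT on either strand was in 27 of the 36 (75.0%), against 33.8% of all 32851 promoters. TTTGAA was in 11 (30.6%), against 16.0% of all, and TTTAAA in 6 (16.7%), against 12.1%. TTTGAA or TTTAAA was in 16 (44.4%), against 25.2%. A match describes the letters in the window and is not a site, and a missing match says only that these letters are not in it.

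Levels below are log2 signals after quantile normalization over the 38 arrays, in which 1 unit is a 2-fold step. They can be compared along a gene but not between genes, whose probes differ. A level under log2 50 (5.64) is called dim. A gene passed a comparison with an adjusted p under 0.05 in limma and a change of at least 2-fold. Where a group was dim, a fold is given as at least the step from the dim limit, and where both were dim, no fold is given. Differences are given with their standard error.

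The labelled cell types carried their own markers: Snap25 was at 15.46 ± 0.09 in neurons, Mog, a myelin protein, at 14.57 ± 0.04 in mature oligodendrocytes, the gap junction gene Gja1 at 14.27 ± 0.05 in astrocytes and Pdgfra at 10.35 ± 0.04 in progenitors (SD, n = 3 each). Bound RNA also held transcripts of other cells. Progenitor RNA had 5 of 5 measured oligodendrocyte markers (summed level 14.49 to 14.84) and 5 of 6 neuron markers (14.79 to 14.97) above the dim limit. Neuron markers were above it for 5 of 6 in mature oligodendrocytes (14.5 to 14.57) and in cortical Olig2 cells (12.75 to 13.61) as well. In bound RNA of Pdgf Cre and Pdgf tumours 0 of 6 microglia and macrophage markers were above the limit, and in Recruited bound arrays 0 or 1.

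Replicate 3 of Recruited total RNA stood apart. In it, 31 of the 31 members above the dim limit in any Recruited total array had their lowest value of the 3 arrays. In 29 the step down to it was at least 2-fold (median gap 4.12), and 24 were dim there, although 26 still lay above every cortex array. The same array was the highest of the 3 for neuron markers (summed level 16.28, against 14.93 and 14.86 in replicates 1 and 2) and oligodendrocyte markers (14.88, against 13.93 and 14.08), and the lowest for progenitor markers (11.37, against 14.21 and 13.78) and microglia markers (9.29, against 12.41 and 10.83). The part of these shifts in the low mitosis values was not tested. The median SD of the tested members in Recruited total RNA was 2.43, against 0.19 for all genes. Since the fit shares 1 spread per gene over all groups, this array widens the error of comparisons that do not use it. Groups at the floor narrow it: the median SD was 0.0 in mature oligodendrocytes, astrocytes, neurons and cortex total RNA. An adjusted p in a tumour comparison may thus be too small, also without this array, where Recruited total RNA rests on replicates 1 and 2. Counts over the tested members are therefore given with all arrays and again without this array. Counts by role and those of other gene lists are given with all arrays only, so the changed error applies to them. The share of all genes passing is not given for fits without an array, so counts from them have no background. Leaving this array out where it is not one of the arrays compared was an alternative chosen after the data were seen.

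The mitosis genes were brightest in Pdgf Cre tumours and near the floor in most resting cell types of the cortex. In bound RNA, 27 of the 41 measured members had a group mean above the dim limit in Recruited, 37 in Pdgf Cre and 32 in Pdgf tumours. In total RNA the counts were 26, 36 and 28 for the models in that order. In the cortex they were 15 in Olig2 cells and 20 in progenitors, but 4 in mature oligodendrocytes, 2 in astrocytes, 7 in neurons and 7 in cortex total RNA. Over all genes the share above the limit was 47.1% to 47.6% in every group. The mean level of the 38 tested members was 6.91 in bound RNA of Recruited, 9.07 of Pdgf Cre and 7.4 of Pdgf tumours, against 5.15 in cortical Olig2 cells, 5.71 in progenitors and 3.15 in cortex total RNA. Of the 38, 30 had their highest group mean in Pdgf Cre bound RNA, 7 in Pdgf Cre total RNA, and 1, Anln, in mature oligodendrocytes. Kif2c, Cenpe, Kif4 and Mybl2 were above the dim limit in Pdgf Cre arrays only. Foxm1 and Kif11 reached the 3 bright arrays needed for testing only with that model. The high place of these genes in Pdgf Cre tumours came with the filter and is not a separate result.

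**Figure D1:**
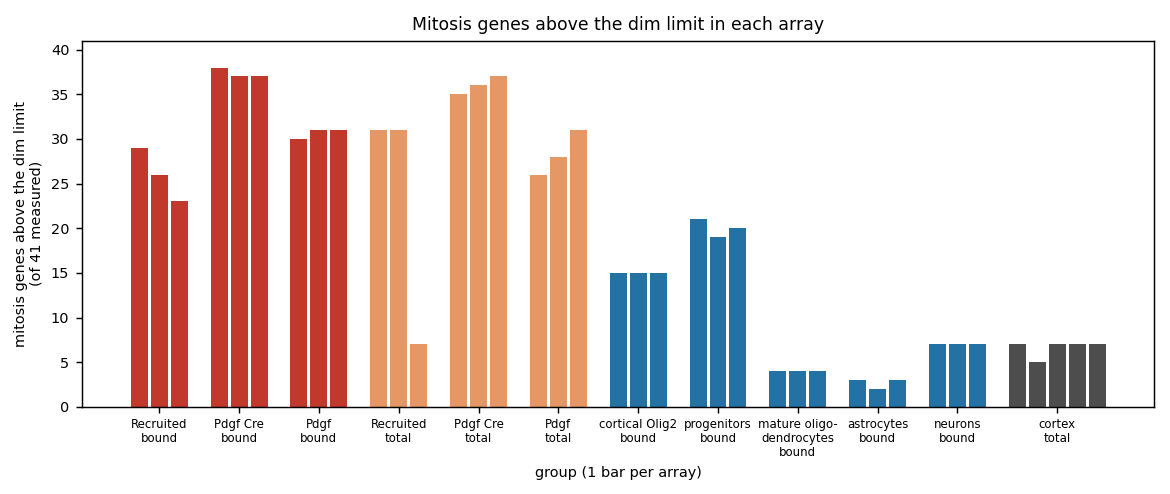
Number of the 41 measured mitosis genes (y axis) above the dim limit of log2 50 in each array, 1 bar per array, by sample group on the x axis. Pdgf Cre arrays hold 35 to 38 such genes and cortical Olig2 arrays 15, and replicate 3 of Recruited total RNA holds 7 where replicates 1 and 2 hold 31 each.

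**Figure D2:**
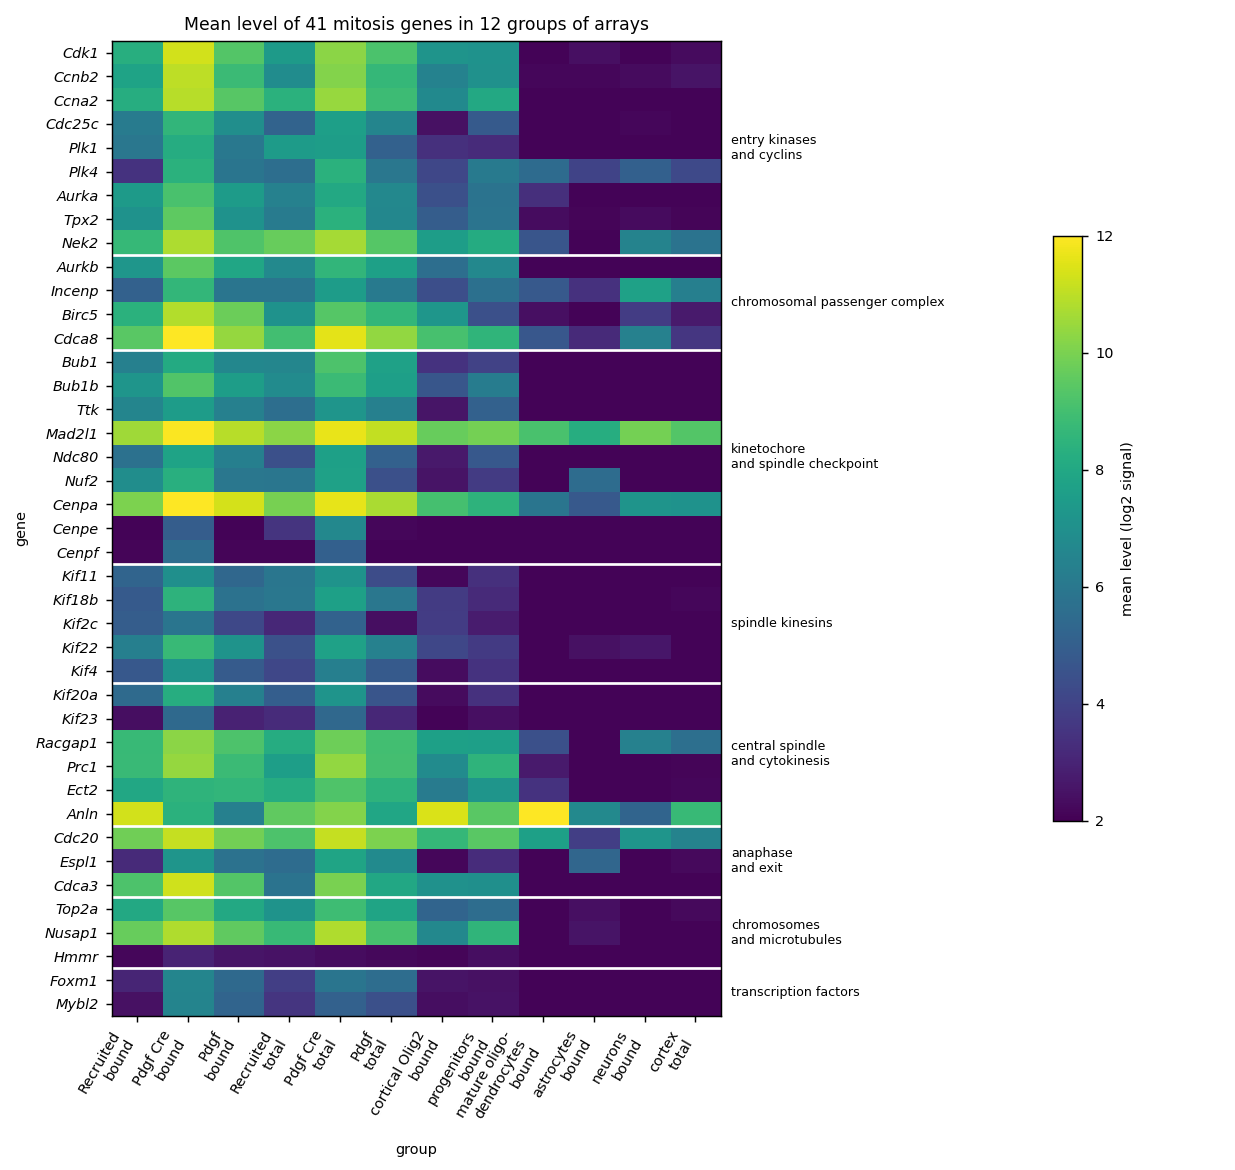
Mean log2 signal (colour, from 2 to 12, with levels above 12 drawn as 12) of the 41 measured mitosis genes (rows, by role) in the 12 groups (columns). Colours compare groups along a row, not genes within a column; most rows are brightest in Pdgf Cre tumours, and Anln is brightest in mature oligodendrocytes.

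Members varied in how widely they were seen. Mad2l1, which encodes the checkpoint protein Mad2, was above the dim limit in all 38 arrays. Cenpe, a kinesin of the kinetochore, had its highest values in Pdgf Cre total RNA (6.17, 6.93 and 6.84) and was dim in Pdgf Cre bound RNA (5.0, 4.91 and 4.89). Cenpf, another kinetochore protein, Kif23, a subunit of centralspindlin, and Hmmr, a spindle protein, were too dim to test. Cenpf was at 5.73, 5.47 and 5.47 and Kif23 at 5.14, 5.58 and 5.57 in Pdgf Cre bound RNA, and no array had Hmmr above 3.24. Since a member enters the tests by being bright somewhere, the counts of tested members that follow describe those 38 and not all 45. Counts and medians from the fit on deposited values, before quantile normalization, can cover more members, since the filter was applied anew there.

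Among cortical cells, many mitosis genes were higher in progenitors and in Olig2 cells than in cortex total RNA. In progenitors 28 of 38 tested members were higher and 0 lower, where 24.4% of all tested genes were higher, and 31 were higher without Recruited total replicate 3. The median difference of the members was 1.94, against 0.01 over all genes. Of the 28, 17 had a level above the dim limit and 11 were dim in both groups, and with levels raised to the dim limit the median was 0.08. Ccna2, which encodes cyclin A2 of S phase and G2, was at 8.21, 7.94 and 7.89 in progenitors, against 2.08 in the 5 cortex arrays, and was at least 5.18-fold higher (5.94 ± 0.66, adjusted p = 4.18e-09). Prc1, the bundler of antiparallel microtubules, was at 8.71, 8.41 and 8.38 in progenitors, against 2.13 to 2.14 in cortex (at least 7.23-fold higher, adjusted p = 1.34e-08). The groups did not overlap for either gene. Nusap1, a spindle-associated protein, was at least 7.47-fold higher (adjusted p = 7.39e-08) and Cdca8, or borealin, at least 7.4-fold higher (adjusted p = 3.57e-09).

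By role, 8 of 9 tested entry kinases and cyclins, 3 of 4 chromosomal passenger genes, 6 of 8 kinetochore and checkpoint genes, 3 of 5 spindle kinesins, 4 of 5 central spindle genes, 2 of 3 anaphase genes and both chromosome genes were higher in progenitors than in cortex, and neither Foxm1 nor Mybl2, the transcription factors, was. The 10 that did not pass included Mad2l1, at 10.26, 9.9 and 9.57 in progenitors, against 8.98 to 9.74 in cortex (0.58 ± 0.38, adjusted p = 0.17).

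In Olig2 cells of the cortex 23 members were higher and 1 lower than in cortex total RNA, with backgrounds of 29.5% higher and 26.6% lower, and a median of 1.88 (0.07 over all genes), or 0.0 with levels raised to the dim limit. Of the 23, 14 had a level above the dim limit and 9 were dim in both groups, and without Recruited total replicate 3 the counts were 24 and 1. Cdca8 was at 8.96, 9.04 and 9.22 in cortical Olig2 cells, against 3.37 to 3.84 in cortex, and at least 10.8-fold higher (adjusted p = 3.12e-10). Birc5, or survivin, of the same complex was at 7.24, 7.34 and 7.24 in cortical Olig2 cells, against 2.71 to 2.74 in cortex, and at least 3.09-fold higher (adjusted p = 6.91e-08). In progenitors Birc5 was dim, at 4.17 to 4.79. Incenp, the scaffold of the complex, was the lower member, at 4.38 to 4.42 in cortical Olig2 cells, against 6.27 to 6.33 in cortex (at least 1.59-fold lower, adjusted p = 6.7e-13).

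The resting cell types gave few changes, below the shares of all genes. The median level of the tested members was 2.08 in each array of these cell types and 2.09 to 2.11 in cortex arrays. Members at the floor in both groups could not pass, so the shares of all genes are not a like background for these counts. In neurons 2 members were higher and 1 lower than in cortex, with backgrounds of 13.4% and 14.8%. Incenp was higher, at 7.7 to 7.72 in neurons, against 6.27 to 6.33 in cortex (2.64-fold, adjusted p = 1.29e-09), as was Cdca8 (at least 1.69-fold, adjusted p = 6.48e-05), and Anln was lower, at 5.23 to 5.24 in neurons, against 8.1 to 9.11 in cortex (at least 8.58-fold, adjusted p = 2.02e-11). On the deposited scale, where the median of all genes moved to 0.66, the neuron counts were 5 and 1. In astrocytes 2 were higher and 7 lower, with backgrounds of 31.1% and 29.8%. The higher ones, Espl1 and Nuf2, were dim in both groups. The lower ones included Cdc20, the activator of the anaphase-promoting complex, at 3.97, 4.1 and 3.46 in astrocytes, against 6.4 to 6.56 in cortex (at least 1.77-fold, adjusted p = 4.48e-05). In mature oligodendrocytes 3 were higher and 4 lower, with backgrounds of 25.2% and 27.7%. Cdc20 was at 7.66, 7.66 and 7.68 there and 2.3-fold higher than in cortex (adjusted p = 0.0392), and Anln, described at the end, made the largest change. Leaving out Recruited total replicate 3 gave 6 higher and 4 lower in mature oligodendrocytes, 2 and 7 in astrocytes and 3 and 1 in neurons.

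Set directly against mature oligodendrocytes, progenitors had 25 members higher and 1 lower, with backgrounds of 18.8% and 19.9% and a median of 2.26 (all genes −0.02), or 0.02 with levels raised to the dim limit. Of the 25, 16 had a level above the dim limit and 9 were dim in both groups. The counts were 30 and 1 without Recruited total replicate 3. Cdk1 was at 7.25, 7.04 and 7.0 in progenitors, against 2.08 in each mature array, which was at least 2.74-fold higher (5.02 ± 0.74, adjusted p = 1.05e-06). Cenpa, the histone H3 variant of centromeres, was above the dim limit in both, at 8.61, 8.06 and 8.77 in progenitors, against 5.95, 5.93 and 5.74 in mature cells, and 6.09-fold higher (adjusted p = 3.72e-05). Cdc20 was 3.39-fold higher (1.76 ± 0.58, adjusted p = 0.0106). The arrays of progenitors and mature cells overlapped for 1 of the 38 tested members. The share of all genes that overlapped was not computed, so this count and those below have no background.

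In tumours, bound RNA of Olig2 cells held more of most mitosis transcripts than bound RNA of cortical Olig2 cells. The share of dividing cells and the RNA per dividing cell cannot be told apart in bound RNA. In the Recruited model 18 members were higher and 0 lower, where 12.9% of all genes were higher. In the Pdgf Cre model 37 of the 38 tested were higher and 1, Anln, was lower, where 17.7% of all genes were higher and 18.3% lower. The 38, here and below, include Kif2c, Cenpe, Kif4, Mybl2, Foxm1 and Kif11, which entered the tests only through Pdgf Cre arrays. In the Pdgf model 33 were higher and 1, again Anln, was lower, where 16.0% of all genes were higher and 16.0% lower. These comparisons share the cortical arrays. The median difference of the tested members was 1.54 in Recruited, 4.19 in Pdgf Cre and 2.46 in Pdgf tumours, against 0.0, 0.03 and 0.06 over all genes, and 0.9, 2.78 and 1.27 with levels raised to the dim limit. Without Recruited total replicate 3 the counts higher were 29, 37 and 35. In Recruited tumours the count was 28 on the deposited scale, where the median of all genes moved to 0.23, and 14 without replicate 1 of Recruited bound RNA.

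**Figure D3:**
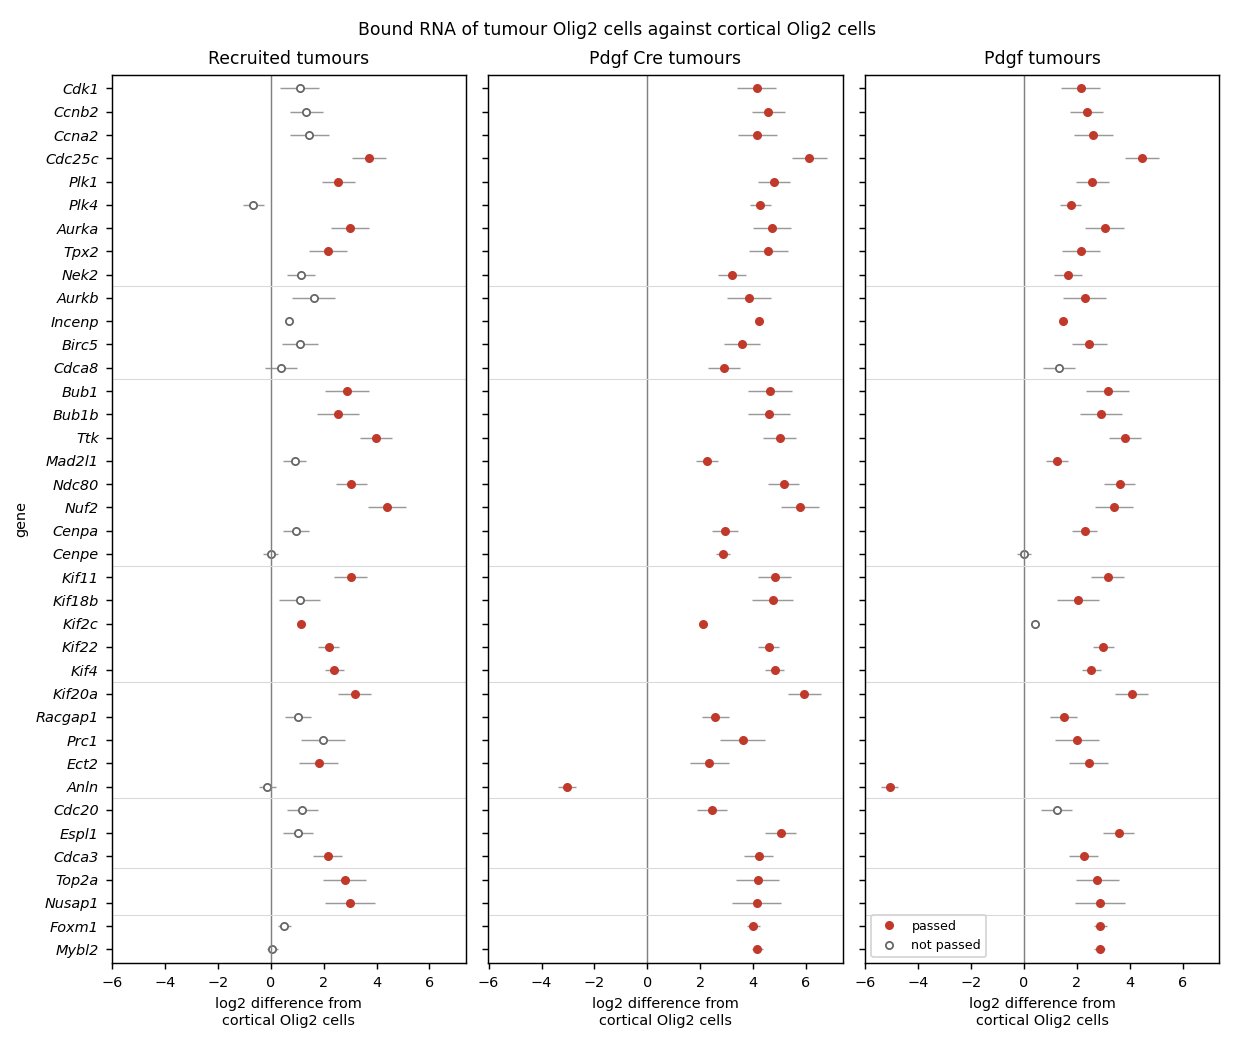
Log2 difference (x axis) in bound RNA between tumour Olig2 cells of each model and cortical Olig2 cells for the 38 tested mitosis genes (y axis, by role); bars are standard errors and filled points passed the test. Most points lie farther right in Pdgf Cre tumours than in the other models, and Anln lies left of 0 in Pdgf Cre and Pdgf tumours.

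Of the 9 tested entry kinases and cyclins, 4 were higher than in cortical Olig2 cells in Recruited, 9 in Pdgf Cre and 9 in Pdgf tumours. Cdk1 was at 9.54, 7.98 and 7.32 in Recruited, 11.06, 11.55 and 11.33 in Pdgf Cre and 9.63, 8.66 and 9.71 in Pdgf tumours, against 7.2, 7.16 and 7.17 in cortical Olig2 cells. Each tumour array was above each cortical one. It was 17.5-fold higher in Pdgf Cre (4.13 ± 0.74, adjusted p = 2.29e-05) and 4.44-fold higher in Pdgf tumours (adjusted p = 0.0154). In Recruited tumours it did not pass (1.1 ± 0.74, adjusted p = 0.225), but did without Recruited total replicate 3 (adjusted p = 0.00943). Ccnb2, which encodes the Cdk1 partner cyclin B2, was at 9.26, 6.88 and 7.24 in Recruited, 10.39, 11.5 and 11.13 in Pdgf Cre and 8.61, 8.41 and 9.4 in Pdgf tumours, against 6.1, 6.5 and 6.71 in cortical Olig2 cells. All tumour arrays lay above the cortical ones. It was 23.7-fold higher in Pdgf Cre (adjusted p = 3.91e-07) and 5.17-fold higher in Pdgf tumours (adjusted p = 0.00219).

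Cdc25c, the phosphatase that activates Cdk1, was dim in cortical Olig2 cells (2.45 to 2.47) and had the largest difference of any member in Pdgf Cre tumours. It was at 7.11, 5.97 and 5.43 in Recruited tumours (at least 1.44-fold, adjusted p = 2.4e-05), at 7.91, 9.15 and 8.71 in Pdgf Cre (at least 7.71-fold, 6.13 ± 0.65, adjusted p = 3.06e-09) and at 7.03, 6.65 and 7.09 in Pdgf tumours (at least 2.43-fold, adjusted p = 1.12e-06). Aurka, the Aurora kinase of the spindle poles, was at least 3.45-fold higher in Recruited, at least 11.2-fold in Pdgf Cre and at least 3.56-fold in Pdgf tumours. Tpx2, which activates it, was at least 2.76-fold higher in Recruited, at least 14.7-fold in Pdgf Cre and at least 2.75-fold in Pdgf tumours. Plk4, the kinase of centriole duplication, was dim in every Recruited bound array (3.47, 3.44 and 3.44) and in cortical Olig2 cells (4.1 to 4.12), but at 8.24, 8.23 and 8.66 in Pdgf Cre tumours (at least 6.66-fold higher, adjusted p = 2.08e-10).

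The chromosomal passenger complex corrects wrong attachments with Aurora kinase B, and 0 of its 4 genes passed in Recruited tumours, against 4 in Pdgf Cre and 3 in Pdgf tumours. Aurkb, its kinase, was at 7.71, 7.7 and 6.33 in Recruited, 9.03, 9.87 and 9.55 in Pdgf Cre and 7.52, 7.61 and 8.66 in Pdgf tumours, against 5.63 to 5.64 in cortical Olig2 cells. It was at least 14.3-fold higher in Pdgf Cre tumours (adjusted p = 0.000191), and its difference in Recruited tumours was 1.62 ± 0.82 (adjusted p = 0.101). Incenp was dim in Recruited tumours (5.56, 4.97 and 4.75) as in cortical Olig2 cells, and at 8.51, 8.89 and 8.49 in Pdgf Cre tumours (at least 7.93-fold higher, adjusted p = 2.09e-19).

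Of the 8 tested kinetochore and checkpoint genes, 5 were higher in Recruited, 8 in Pdgf Cre and 7 in Pdgf tumours. Among them, Cenpe entered the tests only through Pdgf Cre arrays and was dim in every bound array. Nuf2, a subunit of the Ndc80 complex that grips microtubules, was dim in cortical Olig2 cells (2.37 to 2.84). It was at 7.48, 6.76 and 6.52 in Recruited (at least 2.42-fold, adjusted p = 8.67e-06), 7.99, 8.49 and 8.46 in Pdgf Cre (at least 6.36-fold, adjusted p = 5.82e-08) and 3.85, 6.69 and 7.31 in Pdgf tumours, where 1 array was dim. Ttk, the apical checkpoint kinase, was at 7.15, 6.61 and 5.85 in Recruited tumours, against 2.29 to 2.84 in cortical Olig2 cells (at least 1.86-fold, adjusted p = 2.9e-06). Bub1b, which encodes the checkpoint protein BubR1, was at least 2.94-fold higher in Recruited, at least 12.3-fold in Pdgf Cre and at least 3.77-fold in Pdgf tumours. Mad2l1 differed by 0.9 ± 0.42 in Recruited (adjusted p = 0.0764), 2.25 ± 0.42 in Pdgf Cre (adjusted p = 3.85e-05) and 1.26 ± 0.42 in Pdgf tumours (adjusted p = 0.0125).

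Of the 5 spindle kinesins tested, 4 were higher in Recruited, 5 in Pdgf Cre and 4 in Pdgf tumours. Among them, Kif2c, Kif4 and Kif11 entered the tests only through Pdgf Cre arrays. Kif22, a motor that rides on chromosome arms, was at 6.95, 6.19 and 5.85 in Recruited (at least 1.61-fold), 8.25, 9.32 and 8.62 in Pdgf Cre (at least 8.48-fold) and 7.13, 7.02 and 7.26 in Pdgf tumours (at least 2.82-fold), against 4.12 to 4.16 in cortical Olig2 cells. Kif11, or Eg5, which pushes the poles apart, passed in each model (adjusted p = 0.000185, 1.28e-07 and 8.84e-05) but of the bound arrays was above the dim limit only in Pdgf Cre tumours (6.76, 7.14 and 7.09). Of the 5 central spindle and cytokinesis genes, 2 were higher in Recruited and 4 in each of the other models. Kif20a, a kinesin of the central spindle, was dim in cortical Olig2 cells (2.29 to 2.31) and at 7.7, 8.76 and 8.23 in Pdgf Cre tumours (at least 6.0-fold higher, adjusted p = 2.86e-09). Prc1 was 12.1-fold higher in Pdgf Cre tumours (adjusted p = 0.000536), and in Recruited tumours it differed by 1.97 ± 0.84 (adjusted p = 0.0512).

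Of the 3 anaphase and exit genes, 1 was higher in Recruited, 3 in Pdgf Cre and 2 in Pdgf tumours. Cdca3, which helps remove the Cdk1 inhibitor Wee1, was at 9.99, 8.7 and 8.97 in Recruited, 10.58, 11.7 and 11.53 in Pdgf Cre and 9.57, 8.96 and 9.42 in Pdgf tumours, against 6.97 to 7.12 in cortical Olig2 cells. It was 4.47-fold higher in Recruited (adjusted p = 0.00183), 18.5-fold in Pdgf Cre (adjusted p = 1.7e-07) and 4.79-fold in Pdgf tumours (adjusted p = 0.00103). Espl1, or separase, which cuts the cohesin rings, was dim in every Recruited bound array (3.38, 3.39 and 2.84) and at 7.0, 7.62 and 7.02 in Pdgf Cre tumours. Both chromosome genes passed in each model. Top2a, the topoisomerase that untangles sister chromatids, was at 8.47, 8.87 and 6.8 in Recruited (at least 5.29-fold, adjusted p = 0.00494), 9.5, 9.41 and 9.35 in Pdgf Cre (at least 13.7-fold, adjusted p = 6.19e-05) and 7.57, 7.8 and 8.71 in Pdgf tumours (at least 5.21-fold, adjusted p = 0.00465), against 4.99, 5.29 and 5.45 in cortical Olig2 cells.

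The transcription factors of the G2 and M wave were dim in Recruited tumours and, of the bound groups, above the limit only in Pdgf Cre. Both entered the tests only through Pdgf Cre arrays. Foxm1 was at 2.95, 3.11 and 3.09 in Recruited, 5.96, 6.97 and 6.69 in Pdgf Cre and 5.42, 5.43 and 5.41 in Pdgf tumours, against 2.52 to 2.54 in cortical Olig2 cells. Mybl2, which encodes B-Myb, was at 2.36, 2.48 and 2.47 in Recruited, 6.36, 6.77 and 6.47 in Pdgf Cre and 5.28, 5.07 and 5.34 in Pdgf tumours, against 2.36 to 2.38 in cortical Olig2 cells. In Pdgf Cre tumours Foxm1 was at least 1.86-fold higher (adjusted p = 6.02e-14) and Mybl2 at least 1.85-fold higher (adjusted p = 2.37e-16). In Pdgf tumours both passed with all arrays under the dim limit (adjusted p = 9.83e-11 and 1.62e-12), so no fold is given.

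**Figure D4:**
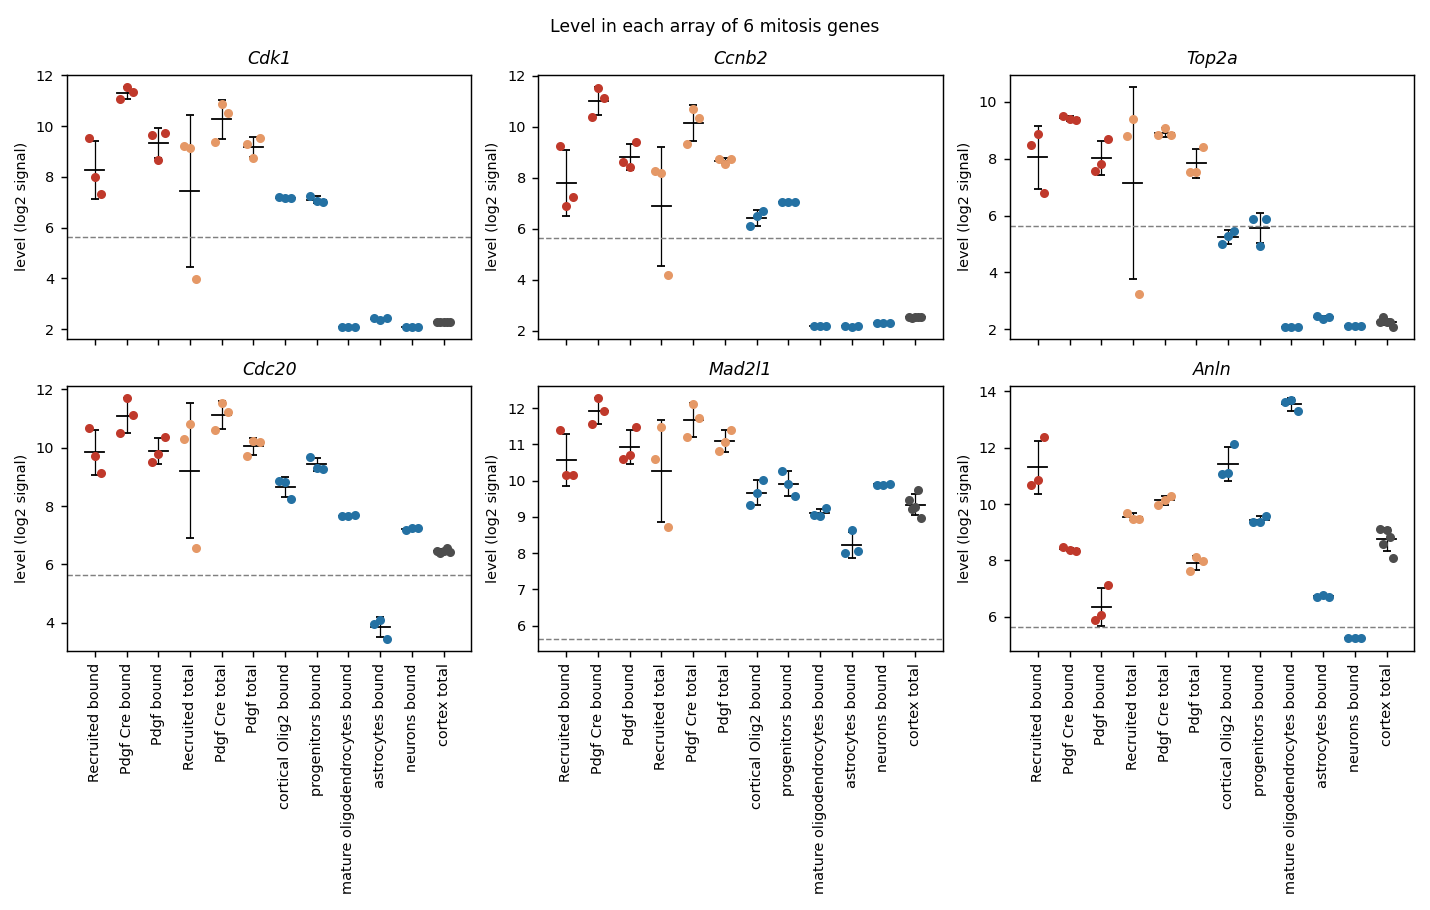
Log2 signal (y axis) in each array for 6 mitosis genes in the 12 groups; points are arrays, horizontal lines are means, bars are SD and the dashed line is the dim limit, with tumour bound RNA in red, tumour total in orange, cortical bound in blue and cortex total in grey. Cdk1, Ccnb2 and Top2a lie highest in Pdgf Cre tumours, Mad2l1 stays above the limit in all 38 arrays, and Anln is highest in mature oligodendrocytes.

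Set against cortical progenitors, tumour bound RNA also held more. In Recruited tumours 14 members were higher and 1 lower (backgrounds 17.1% and 18.4%), in Pdgf Cre 36 and 1 (21.1% and 22.5%), and in Pdgf tumours 24 and 1 (19.9% and 19.9%). The medians were 1.16 in Recruited, 3.49 in Pdgf Cre and 1.61 in Pdgf tumours, against 0.0 over all genes in each. With Recruited total replicate 3 left out the counts were 22 and 1 in Recruited, 37 and 1 in Pdgf Cre, and 31 and 1 in Pdgf tumours. Birc5 was dim in progenitors (4.79, 4.17 and 4.37) and at 9.2, 7.91 and 8.03 in Recruited (at least 6.67-fold, adjusted p = 9.79e-06), 10.53, 11.22 and 10.81 in Pdgf Cre (at least 37.0-fold, adjusted p = 1.67e-09) and 9.86, 9.48 and 9.9 in Pdgf tumours (at least 17.2-fold, adjusted p = 6.87e-08). Cdk1 was 18.5-fold higher in Pdgf Cre (adjusted p = 1.41e-05) and 4.7-fold higher in Pdgf tumours (adjusted p = 0.0103), and differed by 1.19 ± 0.74 in Recruited tumours (adjusted p = 0.171).

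For Recruited tumours the difference from progenitors was uneven. The arrays overlapped for 16 of the 38 (share of all genes not computed). Ccna2 differed by 0.21 ± 0.74 (adjusted p = 0.832), Prc1 by 0.28 ± 0.84 (adjusted p = 0.794) and Cdc20 by 0.41 ± 0.58 (adjusted p = 0.564). Top2a was at least 5.29-fold higher (adjusted p = 0.00977). The lower member was Plk4, at 3.44 to 3.47 in Recruited tumours, against 6.24, 6.14 and 6.0 in progenitors (at least 1.4-fold lower, adjusted p = 1.31e-06). The marker lists moved as well. The summed level of oligodendrocyte markers in bound RNA was 14.96 to 16.66 in Recruited, 11.47 to 12.7 in Pdgf Cre and 11.91 to 12.46 in Pdgf tumours, against 16.23 to 16.24 in cortical Olig2 cells and 14.49 to 14.84 in progenitors. That of progenitor markers was 14.19 to 14.4, 14.0 to 14.39 and 13.43 to 14.19 in the models in the same order, against 14.04 to 14.22 in cortical Olig2 cells and 14.52 to 14.69 in progenitors. Of 4 astrocyte markers, 4 were above the dim limit in Recruited bound RNA (13.5 to 13.59) but 1 in Pdgf Cre (7.61 to 8.1) and 1 in Pdgf tumours (7.24 to 7.39), against 3 or 4 in cortical Olig2 cells (12.19 to 12.41) and 1 or 2 in progenitors (9.6 to 10.51). Of 6 neuron markers, 4 were above it in Recruited (11.89 to 12.45), 2 or 3 in Pdgf Cre (10.03 to 10.91) and 2 in Pdgf tumours (10.84 to 11.41), against 5 in cortical Olig2 cells (12.75 to 13.61) and 5 in progenitors (14.79 to 14.97). The part of these lists in the mitosis results was not tested.

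Between the models, Pdgf Cre tumours held the most mitosis transcripts in bound RNA. Against Pdgf tumours, 22 members were higher in Pdgf Cre tumours and 0 lower, where 7.77% of all genes were higher, with a median of 1.59 (all genes 0.0). Without Recruited total replicate 3, 35 were higher, and without replicate 2 of Pdgf Cre bound RNA, 14. Arrays of the models overlapped for 2 of the 38 (share of all genes not computed). Incenp was at 8.51, 8.89 and 8.49 in Pdgf Cre, against 5.87, 5.85 and 5.89 in Pdgf tumours (6.76-fold, 2.76 ± 0.16, adjusted p = 1.23e-14). Kif18b, a kinesin of astral microtubules, was 6.5-fold higher (adjusted p = 0.00736), Plk4 5.64-fold (adjusted p = 8.45e-06), Ccnb2 4.59-fold (adjusted p = 0.00674) and Cdk1 3.94-fold (adjusted p = 0.0374). By role, 7 of 9 entry genes and 5 of 5 spindle kinesins passed, as did 3 of 8 kinetochore genes and 0 of 2 chromosome genes. The kinesins Kif2c, Kif4 and Kif11, the kinetochore gene Cenpe and both transcription factors entered the tests only through Pdgf Cre arrays. Ect2, which activates RhoA at the furrow, was at 8.38, 8.51 and 8.63 in Pdgf Cre, against 7.69, 8.76 and 9.35 in Pdgf tumours (−0.09 ± 0.74, adjusted p = 0.978), and its arrays overlapped.

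Recruited tumours had 28 members lower than Pdgf Cre tumours and 1, Anln, higher, where 17.0% of all genes were lower and 17.5% higher, with a median of −2.17 (all genes −0.02). The counts without Recruited total replicate 3 were 34 lower and 1 higher. All 9 entry genes and all 4 passenger genes tested were lower. Plk4 was at least 6.66-fold lower (−4.93 ± 0.4, adjusted p = 9.63e-12), Ccnb2 9.28-fold (adjusted p = 7.44e-05), Cdk1 8.16-fold (adjusted p = 0.000924) and Cdca8 5.76-fold lower (adjusted p = 0.000773). Top2a (−1.37 ± 0.81, adjusted p = 0.15), Nusap1 (−1.14 ± 0.94, adjusted p = 0.31) and Ttk (−1.0 ± 0.61, adjusted p = 0.161) did not pass.

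Recruited and Pdgf tumours were closer. In Recruited tumours 1 member, Anln, was higher and 5 lower than in Pdgf tumours, with backgrounds of 12.8% and 13.0%. The median was −0.5 (all genes −0.05), and the arrays overlapped for 28 of the 38 (share of all genes not computed). The lower ones were Mybl2 and Foxm1, dim in both, Espl1 (at least 1.08-fold, adjusted p = 0.000553), Plk4 (at least 1.18-fold, adjusted p = 7.96e-06) and Cenpa, at 10.47, 9.78 and 9.85 in Recruited, against 11.32, 11.09 and 11.63 in Pdgf tumours (2.49-fold, adjusted p = 0.0272). Leaving out Recruited total replicate 3 gave 1 higher and 9 lower, and without replicate 1 of Recruited bound RNA 1 and 11. Several members had close means with wide errors, such as Top2a (0.02 ± 0.81), Tpx2 (0.01 ± 0.72) and Aurka (−0.04 ± 0.73).

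Recruited bound arrays differed among themselves. Of the 29 members above the dim limit in any of the 3, 27 were highest in replicate 1 and 24 lowest in replicate 3, with a median range of 1.72, against 0.62 in Pdgf Cre and 0.77 in Pdgf bound RNA. The range was widest for Tpx2, at 8.64, 6.84 and 5.84. Over these arrays the summed level of oligodendrocyte markers was 14.96, 16.2 and 16.66, lowest where the mitosis genes were highest. Its part in the spread was not tested.

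In total RNA every model was above normal cortex. As in bound RNA, the number of dividing cells and the RNA per dividing cell cannot be told apart there. Of the 38 tested members, 35 were higher in Recruited, 38 in Pdgf Cre and 34 in Pdgf tumours, and 0 were lower in any, with backgrounds of 23.7%, 22.8% and 25.0% higher. The medians were 3.73, 5.56 and 4.03 for the models in the same order, against −0.08, −0.05 and 0.0 over all genes, or 0.77, 2.55 and 1.08 with levels raised to the dim limit. Without Recruited total replicate 3 the counts were 36, 38 and 34, and the Recruited median was 4.96, above that of Pdgf tumours, so the order of these models depended on 1 array. Cdk1 was at 9.21, 9.13 and 3.96 in Recruited (at least 3.46-fold, adjusted p = 6.86e-08), 9.38, 10.88 and 10.52 in Pdgf Cre (at least 24.6-fold, adjusted p = 1.17e-11) and 9.29, 8.73 and 9.52 in Pdgf tumours (at least 11.6-fold, adjusted p = 2.11e-10), against 2.27 to 2.29 in cortex. Cdca8 was at least 10.1-fold higher in Recruited, at least 61.7-fold in Pdgf Cre and at least 26.6-fold in Pdgf tumours. Cdc20 was 6.75-fold higher in Recruited, 25.2-fold in Pdgf Cre and 11.9-fold in Pdgf tumours. Nek2, a centrosome kinase, was 14.9-fold higher in Recruited, 29.3-fold in Pdgf Cre and 11.9-fold in Pdgf tumours. The Recruited values of these 4 genes depended on replicate 3 as well. Leaving it out moved the Recruited log2 difference (± SE) to 6.89 ± 0.36 for Cdk1 (with it 5.16), 6.83 ± 0.29 for Cdca8 (with it 5.39), 4.09 ± 0.31 for Cdc20 (with it 2.75) and 5.12 ± 0.26 for Nek2 (with it 3.9). Differences in Pdgf tumours were 3.58 for Cdc20 and 3.57 for Nek2.

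Tumour total RNA also held transcripts of cells that tumour bound RNA lacked. Of 6 microglia and macrophage markers, 2 to 5 were above the dim limit in Recruited (summed level 9.29 to 12.41), 4 in Pdgf Cre (11.37 to 12.34) and 4 in Pdgf total RNA (11.87 to 12.5), against 1 or 2 in cortex (7.7 to 8.4). Ptprc, a gene of leukocytes, was at 8.63 ± 3.13 in Recruited, 7.2 ± 1.59 in Pdgf Cre and 8.03 ± 0.72 in Pdgf total RNA, against 2.12 ± 0.01 in cortex (SD, n = 3 each and 5). Of 3 measured lymphocyte and granulocyte markers it was the only 1 above the dim limit in any tumour total array. Cd3e averaged 2.08 in each model, and S100a8 3.18 in Recruited, 2.08 in Pdgf Cre and 2.09 in Pdgf total RNA. The part of such cells in the mitosis values of total RNA was not tested.

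Among the models' total RNA, Pdgf Cre tumours had 15 members higher than Pdgf tumours and 0 lower, where 10.4% of all genes were higher, with a median of 1.36 (all genes −0.04). Without Recruited total replicate 3, 29 were higher. Plk4 was at 7.99, 8.64 and 8.51 in Pdgf Cre, against 5.6, 5.82 and 6.47 in Pdgf tumours (5.33-fold, adjusted p = 1.09e-05), with no overlap. Against Pdgf Cre tumours, Recruited total RNA had 29 members lower and 0 higher (18.7% of all genes lower), but without replicate 3 it had 14 lower and 1, Plk1, the Polo-like kinase, higher. Against Pdgf tumours it had 4 higher and 5 lower (16.7% and 17.8%), but without replicate 3 it had 16 higher and 2 lower, without replicate 1 it had 3 and 13, and without replicate 2 it had 2 and 18, so the direction of that comparison rested on single arrays. Without replicate 3, Plk1 was higher than in Pdgf tumours by 3.89 ± 0.26 (adjusted p = 4.32e-13), Kif11 by 3.18 ± 0.22 (adjusted p = 9.68e-13) and Ccna2 by 1.32 ± 0.32 (adjusted p = 0.000992).

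**Figure D5:**
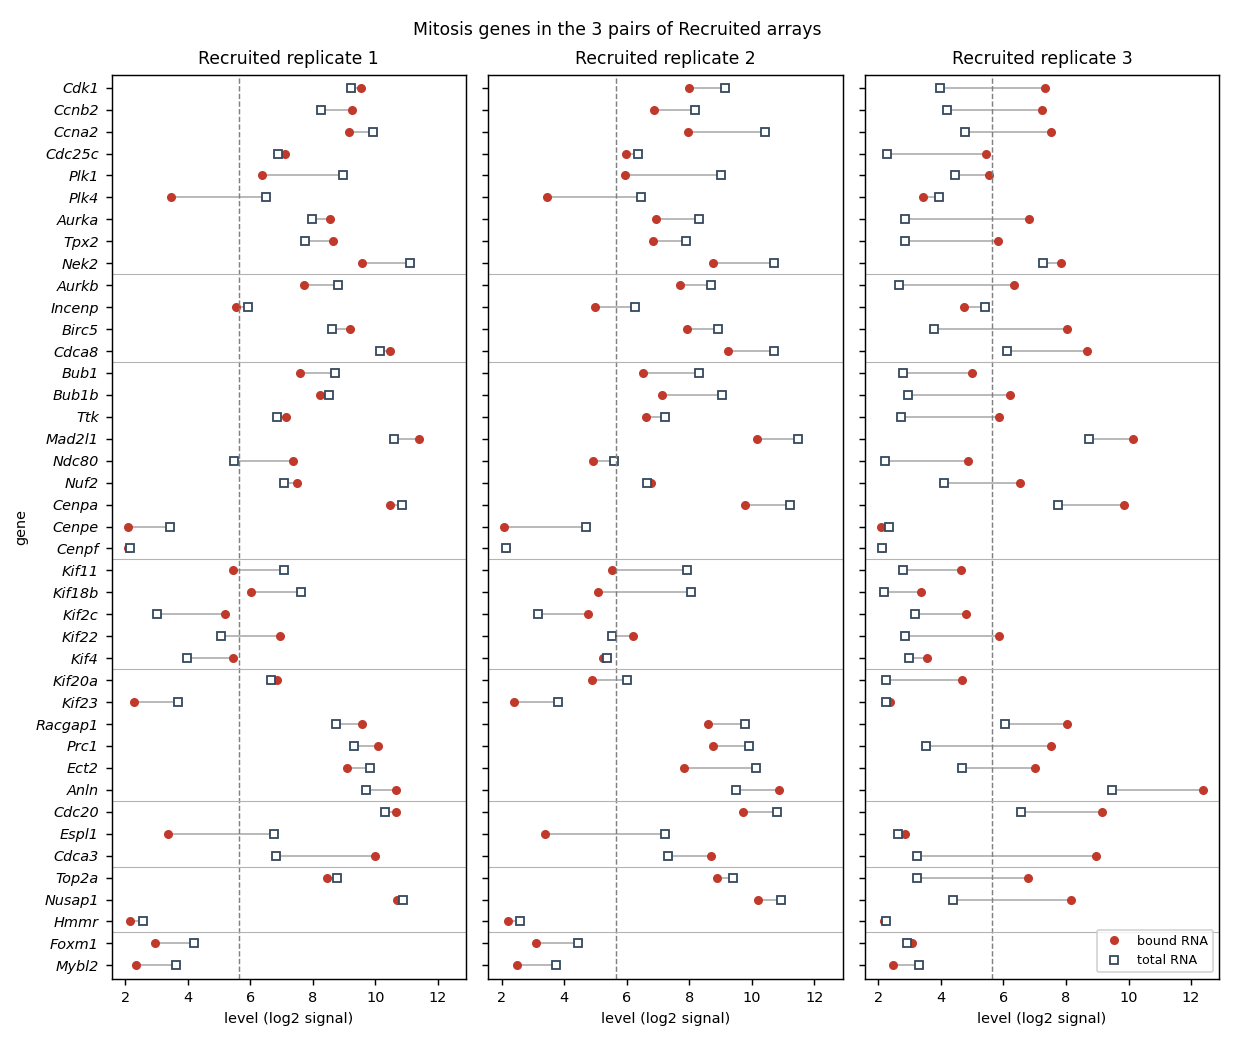
Log2 signal (x axis) of bound RNA (filled circles) and total RNA (open squares) for mitosis genes (y axis) in each of the 3 pairs of Recruited arrays, 1 panel per replicate number; the dashed line is the dim limit. Bound lies above total for 23 of 23 members above the limit in pair 3, where total RNA is low, and for 4 of 32 in pair 2.

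Bound against total RNA of the same tumours gave no common direction. The main fit compared the groups without pairing the arrays. In Recruited tumours 4 members were higher in bound RNA and 5 lower (backgrounds 24.1% and 20.2%), in Pdgf Cre tumours 4 and 2 (20.0% and 18.1%), and in Pdgf tumours 3 and 1 (16.9% and 15.3%). On the deposited values the counts were 2 higher and 10 lower in Recruited, 1 and 2 in Pdgf Cre, and 0 and 7 in Pdgf tumours, with the median of all genes moved to −0.31, −0.23 and −0.35, against 0.13, 0.13 and 0.05. Measured from the median of all genes, the members' median was 0.41, 0.36 and 0.12 after quantile normalization and 0.32, 0.34 and 0.02 on the deposited values. Without Recruited total replicate 3 the counts were 4 and 18 in Recruited, 9 and 3 in Pdgf Cre, and 7 and 3 in Pdgf tumours. The share of all genes is not given for that fit or for those below. Without replicate 1 of Recruited total RNA the Recruited counts were 13 and 4, and without replicate 2, 17 and 3. Leaving out replicate 2 of bound RNA gave 1 and 2 in Pdgf Cre, and leaving out replicate 1 of its total RNA 0 and 2. In Pdgf tumours leaving out replicate 3 of bound RNA or replicate 2 of total RNA gave 1 and 1.

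By pair of same-numbered arrays, bound RNA lay above total RNA for 18 of 33 members above the dim limit in either array in Recruited pair 1, 4 of 32 in pair 2 and 23 of 23 in pair 3, with medians of 0.23, −1.23 and 3.0. The Pdgf Cre pairs gave 32 of 39, 27 of 38 and 28 of 38, and the Pdgf pairs 20 of 30, 17 of 32 and 23 of 33, while 52.7% to 57.2% of all genes lay that way in any pair. On the deposited values the Pdgf pairs gave 6, 11 and 13, and the Recruited pairs 13, 2 and 22. Cdca3 was at 9.99, 8.7 and 8.97 in Recruited bound RNA, against 6.82, 7.32 and 3.24 in total RNA (10.7-fold, 3.42 ± 0.55, adjusted p = 3.9e-06). Bound lay above total in each pair, and without replicate 3 the difference was 2.15 ± 0.31 (adjusted p = 6.72e-07). Plk1 was at 6.37, 5.95 and 5.53 in Recruited bound RNA, against 8.98, 9.0 and 4.46 in total RNA, and Espl1 at 3.38, 3.39 and 2.84 bound, against 6.75, 7.23 and 2.64 total. Both were lower in bound RNA in pairs 1 and 2 and higher in pair 3, and with the replicate block Plk1 no longer passed (adjusted p = 0.0884). Without replicate 3 the difference of Plk1 was −3.04 ± 0.26 (adjusted p = 4.57e-11) and that of Espl1 −3.79 ± 0.21 (adjusted p = 2.32e-15).

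The bound-to-total difference was also compared between models. For Pdgf Cre against Pdgf tumours 1 member was higher and 2 lower (backgrounds 6.04% and 6.30%), or 3 and 2 on the deposited scale. For Recruited against Pdgf tumours 2 were higher and 4 lower (16.0% and 14.0%), or 1 and 2 with the replicate number as a block. Among the lower ones, Mybl2 and Cenpe had dim means in every group compared. For Recruited against Pdgf Cre tumours 3 were higher and 4 lower (13.8% and 12.9%), or 1 and 6 on the deposited scale. Without Recruited total replicate 3 the counts were 1 and 3 for Pdgf Cre against Pdgf, 1 and 19 for Recruited against Pdgf, and 2 and 22 for Recruited against Pdgf Cre tumours. No share of all genes is given for that fit. In that setting Plk1 was lower in Recruited than in Pdgf tumours by this measure (−3.92 ± 0.35, adjusted p = 2.58e-10), as was Kif11 (−3.32 ± 0.3, adjusted p = 2.86e-10), and Anln was higher (3.27 ± 0.5, adjusted p = 3.77e-06).

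Anln was the exception among the members. It encodes anillin, a scaffold of the contractile ring that is also known from myelinating glia. It was at 13.63, 13.71 and 13.29 in mature oligodendrocytes, against 9.11, 8.6, 9.09, 8.83 and 8.1 in cortex total RNA (27.8-fold higher, 4.8 ± 0.29, adjusted p = 7.47e-15). In progenitors it was at 9.37, 9.35 and 9.58, which was 17.2-fold lower than in mature cells (adjusted p = 6.54e-12). In tumour bound RNA it was at 10.67, 10.86 and 12.39 in Recruited, 8.46, 8.38 and 8.33 in Pdgf Cre and 5.87, 6.07 and 7.12 in Pdgf tumours, against 11.06, 11.12 and 12.12 in cortical Olig2 cells. Against the cortical Olig2 cells it was 8.22-fold lower in Pdgf Cre (adjusted p = 4.42e-09) and 33.8-fold lower in Pdgf tumours (adjusted p = 8.49e-14), with no overlap, and differed by −0.13 ± 0.33 in Recruited tumours (adjusted p = 0.786). Oligodendrocyte markers had their highest summed levels in the same groups, at 16.59 to 16.6 in mature oligodendrocytes, 16.23 to 16.24 in cortical Olig2 cells and 14.96 to 16.66 in Recruited bound RNA, and their part in the Anln values was not tested. Over the 12 group means the Pearson correlation of Anln with the mean of the tested members was 0.044, while Tpx2 had 0.993, Bub1b 0.992, Top2a and Ccnb2 0.987 and Cdk1 0.98. Incenp (0.513), Cenpe (0.663) and Plk4 (0.686) were the next lowest. Each gene enters the mean it is set against, so these are descriptions.

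Other mitosis genes outside the 45 gave the same order of models by count. Of a list of 97, 88 were measured and 74 tested. In bound RNA against cortical Olig2 cells 19 were higher and 3 lower in Recruited, 60 and 1 in Pdgf Cre, and 47 and 2 in Pdgf tumours, with medians of 0.65, 2.79 and 1.47. Of all genes, 12.9%, 17.7% and 16.0% were higher in the models in that order. In Pdgf Cre tumours 18.3% of all genes were lower, and in Pdgf tumours 16.0%. The share lower in Recruited tumours is not given, so counts of list genes lower there have no background. The lists were chosen with earlier results of these data known. Ckap2l, a spindle protein, averaged 8.83 ± 0.23 in Pdgf Cre tumours, against 2.08 ± 0.0 in cortical Olig2 cells (SD, n = 3 each), and was at least 9.08-fold higher (adjusted p = 1.67e-22). Pttg1, or securin, which holds separase in check, averaged 8.75 ± 0.3 in Recruited tumours, against 6.21 ± 0.02 in cortical Olig2 cells, and was 5.79-fold higher (adjusted p = 7.54e-05). Of 44 DNA replication genes, 41 were measured and 38 tested, and 7 were higher and 1 lower in Recruited, 36 and 0 in Pdgf Cre, and 23 and 0 in Pdgf tumours. The Recruited count was near the share of all genes given above. Recruited tumours had 0 replication genes higher and 21 lower than Pdgf tumours, where 12.8% of all genes were higher and 13.0% lower. Their median was −1.35, against −0.5 for the mitosis members, and the difference between these lists was not tested. Cdt1, which licenses origins, averaged 7.06 ± 2.05 in Recruited, against 10.09 ± 0.49 in Pdgf tumours (8.15-fold lower, adjusted p = 0.000357).

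Among the 10 genes outside these lists whose group means followed the members' mean most closely were Cdca7l (r = 0.975 over 12 groups), Rad54l (0.973), Fam111a and Lrr1 (0.964 each), Topbp1 (0.956), Vwf (0.955), Cip2a (0.954), Adm (0.951) and Hells (0.945). Of the 50 genes with the highest correlation, 23 were members, which enter the mean themselves, 11 were other mitosis genes and 5 were DNA replication genes.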

How the data were processed

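RNA of 38 samples was hybridised to 1-colour Affymetrix arrays after 2 rounds of amplification, per the labels' protocols. The authors deposited log2 signals made with GCRMA, per the submitters' processing notes, whose version is not given in the sources used here. Each group has its own minimum in the deposited values, so background correction may have been run group by group. That could make the spread within a group too small. It could also shift levels between groups, above all for dim members, and such a shift cannot be told apart from a difference between the groups. Each of the 15644 genes was read by a single probe set, after 64 control probe sets and 687 that the annotation used here leaves unnamed were set aside from the 16395 on the array, and 0 columns were left out. The values were quantile-normalized over all arrays, and a gene was tested where at least 3 arrays exceeded log2 50, which left 9799 genes and removed 5845. The fit was limma 3.58.1 (R 4.3.3) over 12 groups with 26 residual degrees of freedom, in 27 comparisons. Benjamini-Hochberg adjustment ran over all genes tested in a comparison. Every adjusted p is from this fit, except where the text names the replicate block or a fit without an array. The number of arrays limits the precision. The fit was tested on simulated data.

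The members and lists were chosen with earlier results of these data known. Members were described by role, with values by array for members above the dim limit and for the largest and smallest changes. Genes outside them were named from the lists of other mitosis genes and DNA replication genes, at most 4 per list and comparison, or as the 10 genes most correlated with the members' mean, of which 1 is not reported here. Alternatives were the deposited scale, a replicate block, a fit on only the arrays compared, a filter at log2 100 and leaving out each array. On the deposited scale more members passed the filter than the 38 of the main fit. There, 40 were higher in Pdgf Cre total RNA than in cortex.

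Replicate numbers were checked by correlating deviations from the group means: in tumours, same-numbered bound and total arrays correlated at 0.266 to 0.626 and were taken as pairs, and in cortex at −0.189 to 0.214, where they were not. The tumour pairs entered the values by pair and the replicate block, while the main fit did not use them.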

Additional observations from a re-analysis of the deposited data

Results flagged for a closer look

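In cortex total RNA, Nek2 was at 5.26 in 1 of 5 arrays, far from the other arrays, which lay between 5.8 and 5.99. Chance alone sets off this check in about 1 in 20 groups.

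The bound-to-total difference in log2 differed between models in the fit for the following members. Against Pdgf tumours, Pdgf Cre tumours had a larger difference for Incenp (1.32) and a smaller one for Cenpe (-1.61) and Kif2c (-1.06). Against Pdgf tumours, Recruited tumours had a larger one for Cdca3 (2.09) and Anln (3.31) and a smaller one for Plk1 (-2.41), Plk4 (-2.09), Mybl2 (-1.89) and Cenpe (-1.32). Against Pdgf Cre tumours, Recruited tumours had a larger one for Anln (3.5), Cdca3 (2.16) and Kif2c (1.04) and a smaller one for Mybl2 (-2.55), Plk4 (-2.17), Incenp (-1.88) and Foxm1 (-1.47). Some of these values rest on dim levels, where no fold can be read. Cenpe and Mybl2 had dim means in bound and total RNA of both Recruited and Pdgf tumours. Foxm1 had dim means in bound and total RNA of Recruited tumours. Kif2c had dim means in every tumour group but Pdgf Cre bound RNA. Every value that involves Recruited tumours uses replicate 3 of their total RNA. Without that array Cdca3 no longer passed, at 0.81 against Pdgf (adjusted p = 0.11) and 0.88 against Pdgf Cre tumours (adjusted p = 0.0862), while the other members named for Recruited tumours still passed in the same direction. Plk1 against Pdgf tumours moved to -3.92.

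With the replicate number as a block, Cenpe for Pdgf Cre against Pdgf (adjusted p = 0.0926), Cdca3 (0.114), Plk1 (0.0935) and Cenpe (0.0946) for Recruited against Pdgf, and Cdca3 for Recruited against Pdgf Cre tumours (0.11) no longer passed.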

How the results depend on the processing

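Counts of members passing, given as total (higher and lower), moved as follows. On the deposited values they were 6 in neurons against cortex (5 and 1), 7 for Pdgf bound against total RNA (0 and 7), 3 for Pdgf Cre bound against total (1 and 2), 28 for Recruited against cortical Olig2 cells and 5 for the bound-to-total difference of Pdgf Cre against Pdgf (3 and 2). With the replicate block they were 10 in mature oligodendrocytes against cortex (6 and 4) and 3 for the bound-to-total difference of Recruited against Pdgf (1 and 2), and the block moved no other count by over 1.5 times. With only the arrays compared they were 10 in mature oligodendrocytes, 7 for Pdgf and 3 for Recruited bound against total, 25 for Pdgf Cre against Pdgf total RNA, 2 and 8 for Recruited against Pdgf and Pdgf Cre total RNA, and 2 and 4 for the bound-to-total difference of Recruited against Pdgf and Pdgf Cre. With the filter at log2 100 the bound-to-total counts were 1 for Pdgf Cre against Pdgf and 4 for Recruited against Pdgf Cre.

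Leaving out 1 array at a time gave 5 to 10 for mature oligodendrocytes against cortex, 2 to 10 for Pdgf, 2 to 12 for Pdgf Cre and 9 to 22 for Recruited bound against total RNA, 14 to 29 for Recruited against cortical Olig2 cells and 11 to 23 against progenitors. Between models it gave 14 to 35 for Pdgf Cre against Pdgf and 5 to 12 for Recruited against Pdgf bound RNA, 12 to 29 for Pdgf Cre against Pdgf, 7 to 20 for Recruited against Pdgf and 15 to 36 for Recruited against Pdgf Cre total RNA, and 4 to 20 and 5 to 24 for the bound-to-total difference of Recruited against Pdgf and Pdgf Cre. The cause of these moves was not tested. Of the single genes tested under the other alternatives, 872 values kept their direction and side of the threshold, 47 no longer passed, 5 newly passed and 0 turned. Dim probes limit what can be read: 3 measured members were never bright enough to test, and folds from dim groups are bounds.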
